A study of Homo sapiens with 4 samples.

Results

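The miRNAs of HT-29 cells, an established line of human colonic adenocarcinoma, were compared between cells in which Ascl2 was knocked down and their vector control. The comparison rests on 2 of the 4 arrays of the study, 1 array of shRNA-Ascl2/HT-29 cells and 1 array of shRNA-Ctr/HT-29 cells. The other 2 arrays are of LS174T, another colonic adenocarcinoma line transfected with the same plasmids. Both HT-29 lines were stable transfectants of a plasmid that also carries EGFP, and both were kept under G418 at 0.4 mg/ml. This dose was higher than that of the LS174T lines. The shRNA-Ascl2 plasmid expresses a short hairpin RNA against Ascl2, whereas that of the control was empty, and the ratios therefore also compare cells with any short hairpin RNA to cells with none. Stable clones were picked after transfection, and which clone or clones gave the RNA on an array is not given in the sources used here. The array measures miRNAs and holds no probe for Ascl2 itself, so the knockdown could not be checked in these data.

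Ascl2 is a basic helix-loop-helix transcription factor that is switched on by Wnt signalling and marks the stem cells at the base of intestinal crypts. miRNAs are short RNAs that hold down the translation and stability of mRNAs they pair with, chiefly through the seed, bases 2 to 8 from the 5′ end. They are cut from hairpins, several of which can lie on one transcript (a cluster) or within the intron of a protein-coding host gene, and each hairpin can give a miRNA from either of its arms, the minor one of which was named with a star at the time of this array. Members of a cluster thus share a promoter but are processed one by one, and the arms of a hairpin share everything up to the last cut.

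The results turn on a small number of miRNAs, whose mature sequences are shown here because shared seeds and near-identical sequences decide how far their probes can be read as separate measurements (RefSeq, GRCh38.p14, 5′ to 3′, seed in capitals). Of the 1276 human probes, 1083 were matched to a hairpin in that annotation. The first set holds miRNAs that were lower on the shRNA-Ascl2/HT-29 array, listed so that those with one seed stand together:
miR-135b: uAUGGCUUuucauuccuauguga
miR-135a: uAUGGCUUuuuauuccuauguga
miR-378: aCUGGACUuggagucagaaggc
miR-378c: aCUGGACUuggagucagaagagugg
miR-422a: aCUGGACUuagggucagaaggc
miR-301a: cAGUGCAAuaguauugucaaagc
miR-301b: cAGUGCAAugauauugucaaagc
miR-454: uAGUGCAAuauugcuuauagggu
miR-365: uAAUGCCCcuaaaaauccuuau
miR-1287: uGCUGGAUcagugguucgaguc
miR-487b: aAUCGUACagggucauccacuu
miR-28-3p: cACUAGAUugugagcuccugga
miR-135a and miR-135b differ at 1 of 23 bases, miR-378 and miR-422a at 2 of 22, and miR-378 and miR-378c at 2 of the 22 bases they can be compared over. Equally close are miR-301a and miR-301b (2 of 23), miR-17 and miR-20a (2 of 23) and miR-200a and miR-141 (2 of 22). Probes for such pairs can capture each other's miRNA, so their values are not independent of each other. The second set holds miRNAs that were higher on that array, with the hairpins of miR-455 and miR-361 shown by both arms because only in the second did one arm alone move:
miR-125b: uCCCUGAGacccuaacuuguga
miR-455-5p: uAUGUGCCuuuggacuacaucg
miR-455-3p: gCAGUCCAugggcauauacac
miR-361-5p: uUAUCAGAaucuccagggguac
miR-361-3p: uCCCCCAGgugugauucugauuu
miR-183: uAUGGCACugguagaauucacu
miR-33a: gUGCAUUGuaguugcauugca
The third set holds bright miRNAs that were steady by the rule given further on, and miR-141 and miR-200c, which were not, because they share seeds with miR-200a and miR-200b:
miR-200a: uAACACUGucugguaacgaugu
miR-141: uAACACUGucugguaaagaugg
miR-200b: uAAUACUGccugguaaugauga
miR-200c: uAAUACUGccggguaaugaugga
miR-92a: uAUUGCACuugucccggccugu
miR-25: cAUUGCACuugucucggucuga
miR-31: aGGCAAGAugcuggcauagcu
miR-194: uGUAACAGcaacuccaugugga
miR-24: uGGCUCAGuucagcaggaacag

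Each array held 12312 spots for 2680 probe IDs, of which 1276 were human miRNA probes, each printed as 4 spots, of which 2 lie in blocks 1 to 18 and the others in blocks 19 to 36 (1 probe ID had 8 spots). An intensity is the foreground minus the background of a spot, averaged over the spots of a probe, and was scaled by the array's median (275 for shRNA-Ascl2/HT-29 and 301 for shRNA-Ctr/HT-29) over the 544 named miRNA probes above 50 on both arrays. A ratio sets the shRNA-Ascl2/HT-29 array over the shRNA-Ctr/HT-29 array. As each condition has a single array, p-values are not given, each SD is over 4 spots of 1 array and covers technical spread only, and the number of arrays limits the precision. Since the probes differ in how well they bind and label, intensities are compared between arrays for 1 probe and not between probes. The 46 spike-in controls above 50 on both arrays had a median ratio of 1.03, and 0 of them differed 2-fold.

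The arrays were unevenly bright across their surface, which touches every result that follows. Each probe lies in a block and in the partner block 18 blocks further on, so that the partner's intensity over that of the first block reads position alone. This quotient ran from 1.52 (block 1) down to 0.203 (block 17) for shRNA-Ascl2/HT-29 and from 2.65 (block 8) to 0.245 (block 13) for shRNA-Ctr/HT-29. In block pairs 8, 11 and 13 the quotient for shRNA-Ctr/HT-29 (2.65, 2.24 and 0.245) stood apart from that of the neighbouring pairs, and 24 of the 89 human miRNAs there had ratios in their 2 blocks that lay over 4-fold apart. In block pairs 14 to 18 this held for 16 of 126, and in the other 10 pairs for 0 of 287. These 10 pairs are called even below in this sense alone. Their quotients still ran from 0.626 to 1.52 for shRNA-Ascl2/HT-29 and from 0.896 to 2.12 for shRNA-Ctr/HT-29, so they are not free of position. For this reason each ratio is followed by the ratio from blocks 1 to 18 and that from blocks 19 to 36, each scaled on its own. The 3 groups of block pairs were drawn after the values were seen.

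**Figure D1:**
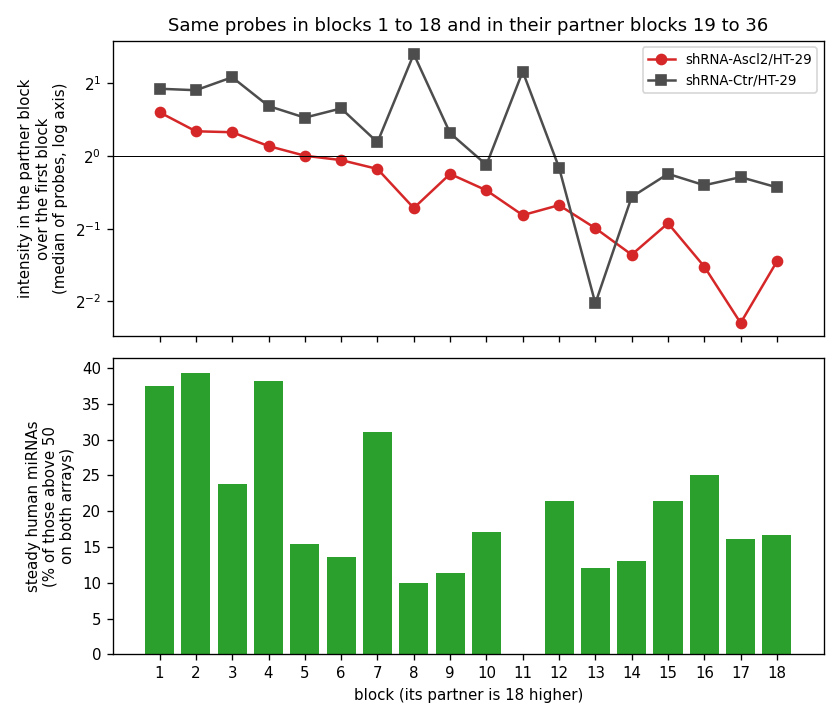
For each of 18 block pairs (x axis, by the number of the first block), the median over probes of the intensity in the partner block over that in the first block (y axis, log scale), drawn for the shRNA-Ascl2/HT-29 and the shRNA-Ctr/HT-29 array. The shRNA-Ascl2/HT-29 array falls from 1.52 in pair 1 to 0.203 in pair 17, while the shRNA-Ctr/HT-29 array stands high at pairs 8 and 11 and low at pair 13.

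The repertoire of HT-29 cells was much the same on both arrays. Of the 1276 human probes, 502 were above 50 on both arrays, 27 on the shRNA-Ascl2/HT-29 array alone, 47 on the shRNA-Ctr/HT-29 array alone and 700 on neither. The limit of 50 is a low one: of the 146 probes for viral miRNAs, 42 (28.8%) passed it on both arrays, against 39.3% of the human probes. Above 1000 on both arrays lay 130 human (10.2%) and 6 viral probes (4.11%), and above 2000 lay 77 human probes (6.03%) and 1 viral probe (0.685%). What these viral probes bound was not tested. The count of 502 is thus a count of probes with signal, and not every one of them is shown to be a miRNA these cells make.

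The brightest probes included many miRNAs known from the colonic epithelium. Of the 15 brightest human probes of each array, 12 were shared, and 44 of the 50 brightest were. They hold the miR-200 family, which keeps ZEB1 and ZEB2 and so the mesenchymal state in check (miR-200a, miR-200b, miR-200c, miR-141 and miR-429), miR-31, miR-24, miR-222, let-7b and the miR-29 pair miR-29a and miR-29b, and also miR-720, miR-1280 and miR-1260b, names that have since been tied to fragments of transfer RNA. Of 9 markers of the colonic epithelium, 8 were above 50 on both arrays, with a summed scaled intensity of 186277 on the shRNA-Ascl2/HT-29 and 199016 on the shRNA-Ctr/HT-29 array, and the exception was miR-215 (-2.35 and 16.3). Of 5 stromal markers, 0 were above 50 on both arrays, their sums being 56.2 and 94.9, and miR-143 and miR-145, the defining markers of smooth muscle and fibroblasts, stood between -2.35 and 19.4. Of 6 blood markers, 3 were above 50 on both arrays (sums 1953 and 1306). These were miR-142-3p (1503 on the shRNA-Ascl2/HT-29 and 923 on the shRNA-Ctr/HT-29 array), miR-150 (294 and 259) and miR-142-5p (97.8 and 69.1). The other blood markers, miR-223, miR-144 and miR-451, were below it. Of 4 muscle markers 2 passed (sums 603 and 549), miR-206 (400 and 450) and miR-133b (161 and 81.7). Of 5 neuronal markers 3 passed (sums 1873 and 1091), miR-124, miR-9* and miR-128, while miR-9 and miR-137 lay between -4.06 and 8.11. Of 2 endothelial markers 1 passed (sums 109.6 and 110.2), miR-126 (99.9 and 83.7). What the probes for markers of other tissues bound was not tested.

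Most of this repertoire lay close to equal on both arrays. Over the 502 human miRNAs above 50 on both arrays the median log2 ratio was 0.03 with a SD of 0.59 across probes, and 371 of them differed by less than 1.5-fold. A miRNA was called steady if its ratio lay between 0.8 and the inverse of 0.8 for all spots and for each block range. Steady miRNAs numbered 102 (20.3% of 502), and 10 of 42 viral probes (23.8%) met the same rule. The share was 25.1% in the 10 even block pairs, 18.3% in pairs 14 to 18 and 7.87% in pairs 8, 11 and 13. A ratio within this band does not show that a miRNA did not change, as 1 array of each kind gives no spread between cultures.

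**Figure D2:**
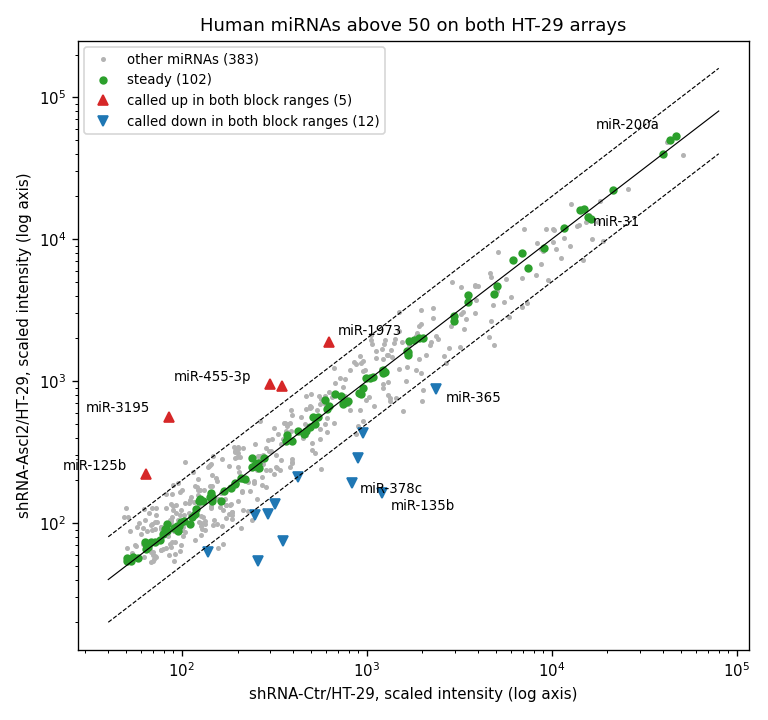
Scaled intensity of each of the 502 human miRNAs above 50 on both arrays, on the shRNA-Ctr/HT-29 array (x axis, log scale) and the shRNA-Ascl2/HT-29 array (y axis, log scale), with steady miRNAs and those called in both block ranges marked. The points follow the line of equal intensity, and the 102 steady miRNAs span the whole range of brightness.

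Bright epithelial miRNAs were among the steady ones. miR-200a gave 46766 ± 13575 (SD over 4 spots) on the shRNA-Ctr/HT-29 and 53626 ± 4457 on the shRNA-Ascl2/HT-29 array, a ratio of 1.15 (1.22 in the first range of blocks and 1.09 in the second). miR-200b gave 40077 ± 15084 and 39694 ± 8618, a ratio of 0.990 (1.01 and 0.996). Both lie in one cluster at chr1:1167104-1169087 (GRCh38.p14, plus strand), and their values differed between the arrays by less than the spread of the control spots. The other probes of that cluster were not steady: miR-429 had a ratio of 0.737 (0.951 and 0.350), miR-200a* 1.66 (2.12 and 1.35) and miR-200b* 1.44 (3.16 and 0.684). miR-194, a miRNA of the intestine and liver, gave 11668 ± 1647 and 12071 ± 1672, a ratio of 1.03 (1.05 and 0.974). miR-31, which is raised in many colorectal cancers, gave 14959 ± 7217 and 16301 ± 4596, a ratio of 1.09 (1.18 and 1.08). miR-24, made from 2 hairpins on chromosomes 9 and 19, gave 14250 ± 4838 and 16100 ± 3446, a ratio of 1.13 (1.13 and 1.14). The steady rule itself requires the ratios of these 5 steady probes to lie near 1 in both block ranges. Intensities could still differ between ranges. For miR-31 in shRNA-Ascl2/HT-29 cells they were 11338 in the first range and 21491 in the second. For miR-194 in the same cells they were close, at 11972 and 11792.

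Growth-related miRNAs of several families were steady too. miR-92a, made from the miR-17 cluster and its copy on the X chromosome, read 6867 on the shRNA-Ctr/HT-29 and 7983 on the shRNA-Ascl2/HT-29 array. miR-25, which has the same seed, read 2951 and 2891. let-7b and let-7g, of a family that holds RAS and MYC down, read 15664 and 14359, and 7483 and 6281. miR-29b, which targets collagens and other matrix mRNAs, read 16295 and 13986. The ratios of these 5 were 1.16, 0.980, 0.917, 0.839 and 0.858. The other named steady miRNAs, chosen as the 20 brightest of the 102, were miR-103, miR-101, miR-30c, miR-30e and miR-224 and the probes miR-1260b, miR-1280, miR-4286, miR-1274a and miR-1246, with ratios from 0.848 (miR-30c) to 1.15 (miR-101). Of the 130 human miRNAs above 1000 on both arrays, 32 were steady.

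Changes of 2-fold were counted among the 576 human probes above 50 on at least 1 array. With all spots, 24 (4.17%) were called higher and 49 (8.51%) lower on the shRNA-Ascl2/HT-29 array, against 9.8% and 7.84% of 51 viral probes. From blocks 1 to 18 alone 8.48% were called higher and 7.96% lower, whereas from blocks 19 to 36 alone 7.18% were called higher and 17.2% lower. Called the same way with all spots and in each range were 9 higher (1.56%) and 25 lower (4.34%). Of these viral probes, 2 (3.92%) were called higher and 3 (5.88%) lower by the same rule, shares that are not below those of the human probes. Among them, hsv1-miR-H5-3p read 1171 on the shRNA-Ctr/HT-29 and 114 on the shRNA-Ascl2/HT-29 array, a ratio of 0.0972. A call in both ranges is therefore a call that 2 parts of one array share, and it sets no rate of error for human miRNAs.

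Of the 34 human miRNAs called in both ranges, 17 were above 50 on both arrays, 5 higher and 12 lower. In 33 of the 34 the 4 spots of one array did not overlap the 4 spots of the other, miR-221* being the exception, against 80 of the 502 probes above 50 on both arrays (15.9%). Since the calls were made on the same spots, this count describes them and does not support them.

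**Figure D3:**
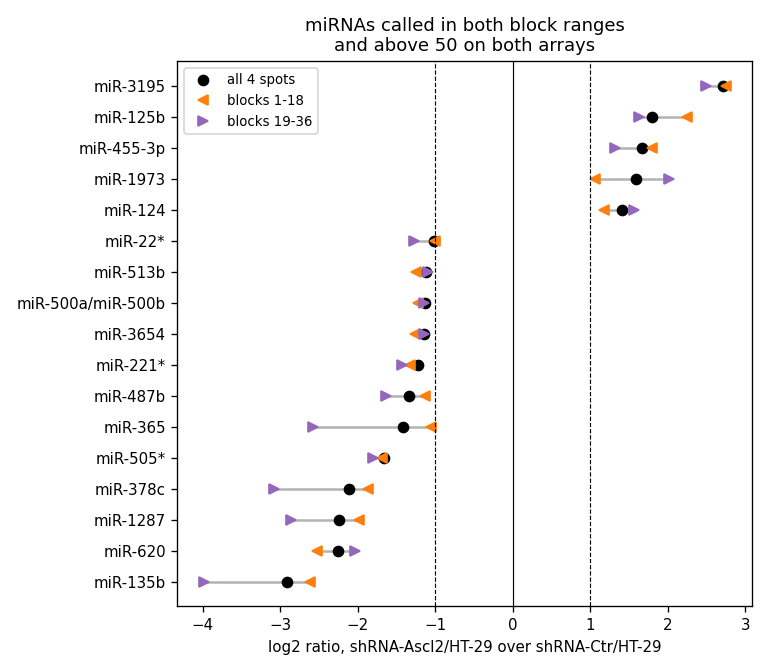
The 17 miRNAs called in both block ranges and above 50 on both arrays (y axis), with the log2 ratio of shRNA-Ascl2/HT-29 over shRNA-Ctr/HT-29 (x axis) from all spots and from each block range. The 3 markers of a miRNA lie on one side of 0 throughout, as the call requires. With all spots they run from -2.91 for miR-135b to 2.71 for miR-3195.

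The miRNAs that were lower on the shRNA-Ascl2/HT-29 array included miR-135b, which lies in an intron of LEMD1 (chr1:205448361-205448383, minus strand) and is known to target APC, the brake on Wnt signalling. Its spots read 1429, 1447, 1116 and 1095 on the shRNA-Ctr/HT-29 array and 209, 296, 63 and 50 on the shRNA-Ascl2/HT-29 array before scaling. All 4 control spots were above all 4 knockdown spots, and the ratio was 0.133 (0.162 and 0.0628). The probe lies in blocks 18 and 36, of which block 36 was the dim one on the shRNA-Ascl2/HT-29 array (a quotient of 0.366). With each spot divided by the landmark control of its block the ratio was 0.193. miR-135b* from the other arm of the same hairpin read 81.7 on the shRNA-Ctr/HT-29 array and 19.1, below the limit, on the shRNA-Ascl2/HT-29 array, at least 1.56-fold lower, and miR-135a, which shares the seed, read 132 and 29.3, at least 2.52-fold lower. These bounds set the control value against the limit of 50 on the dim array. The 3 probes were thus lower together, in different blocks, although miR-135a and miR-135b could share a signal.

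A second seed group that was lower was that of miR-378. miR-378c read 1122, 865, 714 and 760 on the shRNA-Ctr/HT-29 and 336, 251, 77 and 65 on the shRNA-Ascl2/HT-29 array, a ratio of 0.230 (0.273 and 0.118). miR-422a read 131 and, below the limit, 44.7 after scaling, at least 2.50-fold lower. miR-378 itself, from an intron of PPARGC1B, a coactivator of mitochondrial genes, read 1979 and 719, a ratio of 0.363 (0.522 and 0.138), and so missed the 2-fold rule in blocks 1 to 18. The 3 sequences share the 7 bases of the seed, and the spots of miR-378c did not overlap between the arrays. The probes of miR-378, miR-378c and miR-422a lie in block pairs 17, 18 and 16, where the partner blocks of the shRNA-Ascl2/HT-29 array were dim. With the landmark correction miR-378c stood at 0.340. A further probe, miR-378b in block pair 11, read 134 and 88.9, a ratio of 0.663 (0.614 and 0.655).

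Lower without a close relative by seed were miR-365 and miR-1287. miR-365, which targets cyclin D1 and lies with miR-193b in the noncoding gene MIR193BHG on chromosome 16, read 2652, 2677, 2352 and 2169 on the shRNA-Ctr/HT-29 and 1380, 1381, 416 and 198 on the shRNA-Ascl2/HT-29 array, a ratio of 0.375 (0.479 and 0.167). Its neighbour miR-193b read 2007 and 861 after scaling, a ratio of 0.429 (0.515 and 0.182), while miR-193b* from the other arm had a ratio of 1.30. The probes of miR-365 and miR-193b both lie in blocks 18 and 36, of which block 36 was dim on the shRNA-Ascl2/HT-29 array (a quotient of 0.366). Both were lower in each range, but they share this position, and its part in their ratios was not tested. The landmark correction left miR-365 at 0.541, above the 2-fold limit. miR-1287, in an intron of PYROXD2, read 392, 362, 351 and 367 on the shRNA-Ctr/HT-29 and 109, 96, 49 and 31 on the shRNA-Ascl2/HT-29 array, a ratio of 0.212 (0.252 and 0.137), and 0.0872 after the landmark correction. The probe lies in blocks 14 and 32. The landmark control of block 32 stood at 0.171 on the shRNA-Ctr/HT-29 array, against 1.19 in block 14. The spots of miR-1287 on that array were not dim in block 32 (351 and 367), so 0.0872 is not read as a larger decrease. In blocks 19 to 36 its shRNA-Ascl2/HT-29 spots were below 50, so 0.137 is not read as a fold.

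Of the other miRNAs called lower and above 50 on both arrays, 4 lie in the 10 even block pairs. miR-487b, of the imprinted miRNA cluster of chromosome 14, read 231, 305, 310 and 377 on the shRNA-Ctr/HT-29 and 118, 145, 83 and 96 on the shRNA-Ascl2/HT-29 array, a ratio of 0.395 (0.454 and 0.320). miR-3654, in an intron of CHCHD3, read 950 ± 69.6 and 428 ± 101 after scaling, a ratio of 0.450 (0.418 and 0.450). The probe shared by miR-500a and miR-500b read 139 ± 9.66 and 63.0 ± 9.60 (0.455), while another probe named miR-500a gave 1.06, so the 2 probes disagree. miR-513b read 250 ± 35.0 and 114 ± 19.1 (0.458). These 4 ratios lay between 0.395 and 0.458, and those of miR-3654, miR-500a/miR-500b and miR-513b rose to between 0.517 and 0.539 with the landmark correction, which ended the call.

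The remaining 4 called lower lie in block pairs 13, 15, 17 and 18, where the partner blocks of the shRNA-Ascl2/HT-29 array were dimmer than the first blocks. In pair 13, that of miR-505*, the shRNA-Ctr/HT-29 array fell further (a quotient of 0.245, against 0.502 for shRNA-Ascl2/HT-29). miR-505* read 901 ± 142 on the shRNA-Ctr/HT-29 and 286 ± 103 on the shRNA-Ascl2/HT-29 array, a ratio of 0.317 (0.309 and 0.285). miR-620, in an intron of MED13L, read 258 ± 113 and 53.9 ± 20.6, a ratio of 0.209 (0.173 and 0.244). miR-221* and miR-22* had ratios of 0.429 (0.399 and 0.370) and 0.494 (0.4997 and 0.414), which became 0.883 and 0.697 with the landmark correction. Each of the 4 was lower in both ranges, as the call requires. Of these, miR-221* and miR-22* lost the call with that correction while miR-505* (0.433) and miR-620 (0.378) did not.

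The miRNAs called higher were led by miR-3195, whose spots read 668, 688, 490 and 282 on the shRNA-Ascl2/HT-29 and 99, 88, 57 and 112 on the shRNA-Ctr/HT-29 array, a ratio of 6.54 (6.71 and 5.62). It lies in block pair 14, and the landmark correction gave 3.01. miR-455-3p, from an intron of the collagen gene COL27A1 (chr9:114209487-114209507, plus strand) and known from cartilage, read 1226, 1151, 675 and 591 against 271, 361, 280 and 347, a ratio of 3.17 (3.48 and 2.48). miR-1973 read 1305, 1782, 2264 and 1857 against 592, 779, 653 and 601, a ratio of 3.00 (2.08 and 4.04). In all 3 every spot of the shRNA-Ascl2/HT-29 array was above every spot of the shRNA-Ctr/HT-29 array.

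The last pair called higher is best known from other cells. miR-125b, a homologue of the worm gene lin-4 that is made from 2 hairpins on chromosomes 11 and 21, read 169, 181, 255 and 248 on the shRNA-Ascl2/HT-29 and 27, 41, 97 and 104 on the shRNA-Ctr/HT-29 array, a ratio of 3.47 (4.76 and 3.08). miR-124, the defining miRNA of neurons, read 1040, 1034, 713 and 752 against 257, 591, 301 and 310, a ratio of 2.65 (2.26 and 2.95). Beside it, the neuronal markers miR-9 and miR-137 were near 0 on both arrays, and miR-9* and miR-128 had ratios of 1.32 and 1.22. miR-124, miR-125b, miR-455-3p and miR-1973 all lie in the 10 even block pairs and had ratios between 2.42 and 3.41 with the landmark correction. With another background correction (normexp, a model of background and signal, offset 50), 11 of the 17 calls with all spots were kept, and those lost were miR-125b (1.98), miR-487b (0.554), miR-513b, miR-500a/miR-500b, miR-22* and miR-221*.

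The other 17 miRNAs called in both ranges were at or below 50 on one array and carry a bound only, 4 on the higher side and 13 on the lower side. The bound was 2-fold or more for 8 of them. The widest was that of miR-3146, in an intron of POLR1F, which read 860, 914, 423 and 422 on the shRNA-Ctr/HT-29 and 38, 47, 37 and 26 on the shRNA-Ascl2/HT-29 array, at least 11.97-fold lower. miR-3074 read 282, 345, 135 and 197 against 1, -7, 8 and -8, at least 4.38-fold lower. Its hairpin (chr9:95086014-95086094, minus strand) lies opposite that of miR-24-1, and miR-24-1* was steady at 1077 and 1064. Above 50 in both ranges of the shRNA-Ctr/HT-29 array and below 25 in both ranges of the shRNA-Ascl2/HT-29 array were 6 miRNAs, miR-135b*, miR-4307, miR-3074, miR-3650, miR-3666 and miR-642a, and 0 showed the reverse. A spot of miR-3650 read -434, so its mean is not usable.

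Outside the calls in both ranges, 47 further miRNAs moved by 1.5-fold or more the same way with all spots and in each range, and several of these are bright and well studied. Of the 502, 37 (7.37%) were lower and 27 (5.38%) higher by this rule. Some of the 47 passed 2-fold with all spots but not in each range. Among them were miR-378 (0.363), miR-301a (0.371) and miR-20a (0.487) on the lower side and miR-3176 (2.54) on the higher side. miR-210, the miRNA best known for its induction by hypoxia, read 16578 on the shRNA-Ctr/HT-29 and 10080 on the shRNA-Ascl2/HT-29 array, a ratio of 0.608 (0.615 and 0.568). miR-33a, which lies within SREBF2 and holds down the cholesterol exporter ABCA1, read 2898 and 4976, a ratio of 1.72 (1.94 and 1.52). miR-1290 read 5130 and 8088, a ratio of 1.58 (1.56 and 1.61). miR-375, known from pancreatic islets and gut epithelium, read 1050 and 2130, a ratio of 2.03 (1.57 and 2.95), and let-7f had a ratio of 0.612 (0.569 and 0.610). The rule for the 47 fixes the same direction in both block ranges, so that agreement is no support. These 5 moved by modest amounts and without a replicate. They were chosen from the 47 after their values were seen.

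The members of a cluster mostly did not move together. Hairpins on one strand with neighbouring starts within 10 kb were taken as a cluster, and 31 clusters had at least 2 hairpins with a probe above 50 on both arrays, 128 probes in all. Of these probes, 16 were higher and 19 lower by 1.5-fold or more, which is 12.5% and 14.8% of the 128, against 12.2% and 13.9% of all 502, and 25 were steady. In 9 clusters every probe was inside 1.5-fold, in 10 some were lower and in 7 some higher while the rest were inside, in 4 members moved both ways, and in 1 every member was lower. In the 10 even block pairs alone, 8 of 66 cluster probes were higher (12.1%) and 5 lower (7.58%), against 13.2% and 9.06% of all 287 probes there. These shares are near the background.

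**Figure D4:**
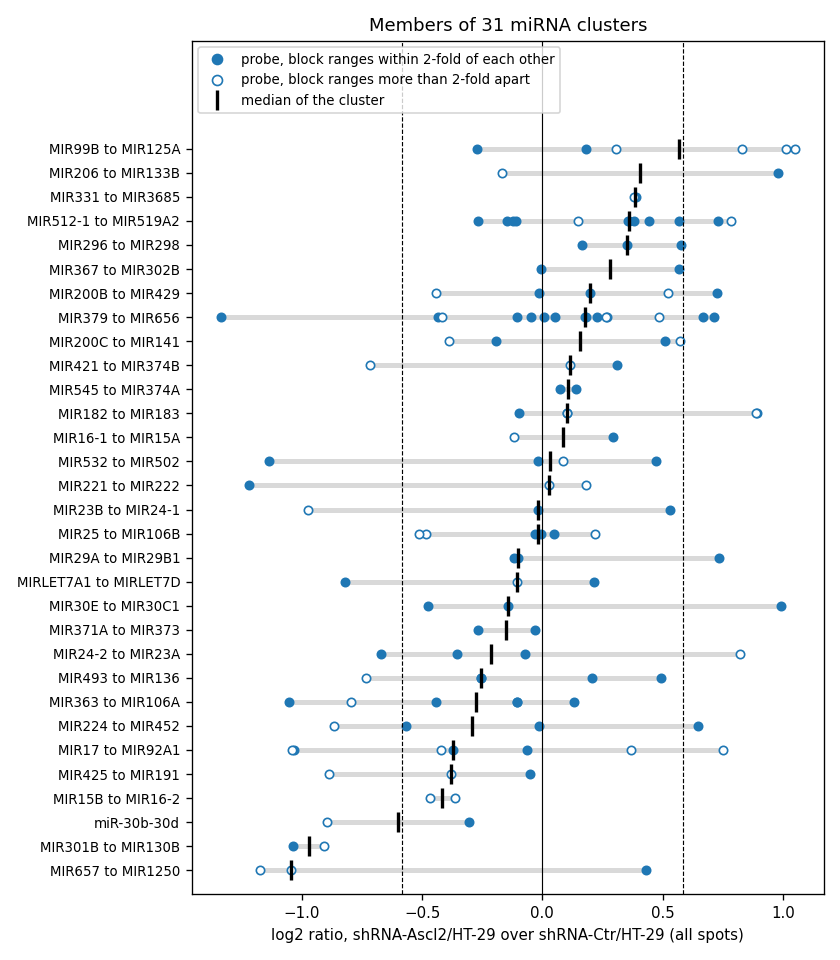
For each of 31 miRNA clusters (y axis, named by the first and last hairpin), the log2 ratio of shRNA-Ascl2/HT-29 over shRNA-Ctr/HT-29 of each member above 50 on both arrays (x axis, all spots), with members whose 2 block ranges lie within 2-fold of each other marked apart from the rest. Most members lie between the 1.5-fold limits, and MIR301B to MIR130B is the only cluster with every member beyond the lower one.

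The cluster with every member lower was that of miR-301b and miR-130b (chr22:21653025-21653385, plus strand). miR-301b read 876 on the shRNA-Ctr/HT-29 and 427 on the shRNA-Ascl2/HT-29 array, a ratio of 0.487 (0.554 and 0.425). miR-130b read 1434 and 764, a ratio of 0.533, but its ranges were 0.946 and 0.243, so that only miR-301b was lower in both. miR-301a and miR-454, which carry the same seed and both lie in the gene SKA2 on chromosome 17, too far apart to count as a cluster here, read 4846 and 1796, and 563 and 239. Their ratios were 0.371 (0.529 and 0.102) and 0.425 (0.514 and 0.263). The 3 miRNAs with that seed shown above were lower in each range, whereas miR-130b, of the same family, stood at 0.946 in blocks 1 to 18. miR-301a and miR-301b could share a signal. miR-301a and miR-454 lie in block pairs 17 and 15, where the partner blocks of the shRNA-Ascl2/HT-29 array were dim. miR-301b lies in block pair 4, which belongs to the even pairs. The part of position in the ratios of these 3 miRNAs was not tested.

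In 3 of the 4 clusters with members on both sides, a member that moved had block ranges that disagreed. In the miR-17 cluster (chr13:91350605-91351391, plus strand), which drives proliferation and is a target of MYC, miR-17 and miR-20a were lower, miR-19a had a ratio of 1.68, from 8.63 in the first range and 0.621 in the second, and miR-20a* was steady at 524 and 501. In that of miR-23a, miR-27a and miR-24-2 on chromosome 19, miR-24-2* had a ratio of 1.77 (15.2 and 0.361) and miR-23a* one of 0.629 (0.723 and 0.582), while miR-23a stood at 0.950 and miR-27a at 0.781. In the gene GABRE, miR-452 had a ratio of 0.548 (0.908 and 0.140) and miR-224* one of 1.57 (1.91 and 1.17), with miR-224 steady at 2024 and 2006. The fourth, the imprinted cluster of chromosome 14, had 15 probes, of which miR-299-5p (1.59, with 1.35 and 1.78) and miR-377* (1.64, with 1.50 and 1.72) were higher, miR-487b was lower, and 4 were steady, among them miR-300 at 367 and 381. Only in this cluster did both the higher and the lower members keep their direction in each range, with ranges within 2-fold of each other.

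Among clusters with every probe inside 1.5-fold, the brightest was that of miR-200c and miR-141 on chromosome 12. miR-200c read 25824 on the shRNA-Ctr/HT-29 and 22591 on the shRNA-Ascl2/HT-29 array, a ratio of 0.875 (1.04 and 0.593), and miR-141 read 50993 and 38974, a ratio of 0.764 (0.967 and 0.393). The cluster in MCM7, a gene of the replicative helicase, came next with miR-25, miR-25* and miR-106b* steady, miR-106b at 1.16 (0.798 and 9.79) and miR-93 at 0.715 (1.03 and 0.217). The steady probes of MCM7 lie in block pair 10 and those of miR-106b and miR-93 in pairs 14 and 16. The others were miR-15b with miR-16-2*, miR-15a with miR-16-1*, miR-374a with miR-545, and miR-331-3p with miR-3685. miR-15a and miR-15b hold down BCL2 and cyclins. miR-15b stood at 0.777 and miR-15a at 0.921, yet with ranges of 0.548 and 6.995 for the former and 0.626 and 11.4 for the latter, so that a ratio near 1 was there the mean of block ranges that disagree.

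The miR-183 cluster, named after its values were seen, was split. miR-183 read 1049 on the shRNA-Ctr/HT-29 and 1946 on the shRNA-Ascl2/HT-29 array, a ratio of 1.86 (1.81 and 1.89), and miR-183* from the other arm read 667 and 1236, a ratio of 1.85 (2.99 and 1.21). Their neighbour miR-182 on the same strand was steady at 1218 and 1140. miR-96 between them stood at 1.07, with ranges of 0.715 and 19.8. With all spots both arms of the miR-183 hairpin were thus higher, while miR-182 was not. Only miR-183 was past 1.5-fold in each range, as miR-183*, in block pair 11, stood at 1.21 in blocks 19 to 36.

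The arms of a hairpin were measured above 50 on both arrays for 89 pairs, 13 of which share their main arm with another pair. In 43 pairs both arms were inside 1.5-fold, in 42 one arm alone moved, in 4 both moved the same way and in 0 they moved in opposite ways. Beside these counts, 12.2% of all 502 probes were higher and 13.9% lower by 1.5-fold with no regard to pairing, and nothing particular to arm pairs is read from them. Where one arm moved it was the main or 5p arm in 25 pairs and the star or 3p arm in 17. Both arms lay on the same side of 1 in 50 of 89 pairs, and in 27 of the 48 pairs whose ranges lay within 2-fold of each other. With both arms in the 10 even block pairs, 29 pairs were left, of which 18 were inside, 11 moved by one arm and 0 by both. From blocks 19 to 36 alone, 15 pairs moved the same way, and from blocks 1 to 18 alone 3.

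**Figure D5:**
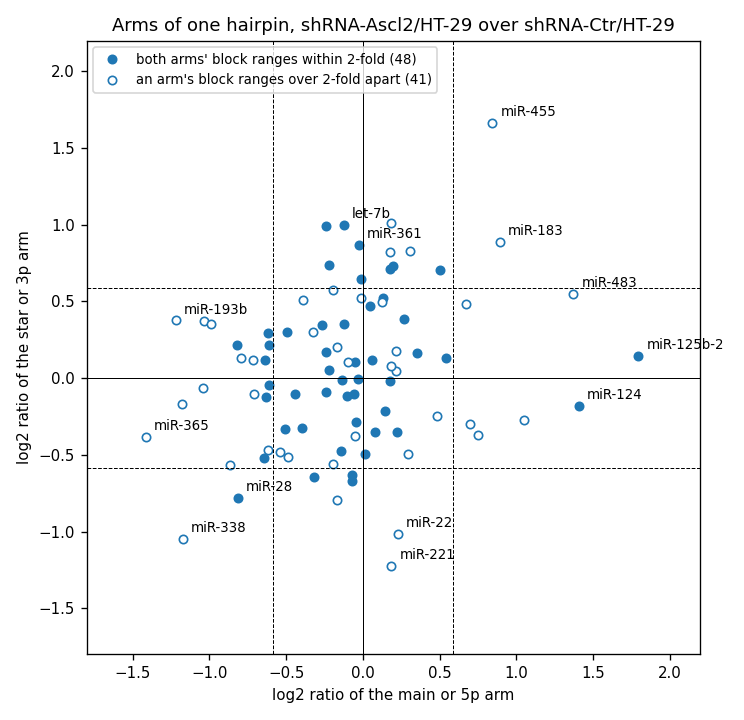
Log2 ratio of shRNA-Ascl2/HT-29 over shRNA-Ctr/HT-29 for the main or 5p arm (x axis) and the star or 3p arm (y axis) of 89 hairpins with both arms above 50 on both arrays, with the 1.5-fold limits drawn. The 4 pairs with both arms past the limit the same way are miR-28, miR-183, miR-338 and miR-455, and 0 pairs lie past it in opposite ways.

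The 4 pairs that moved by both arms were miR-28, miR-183, miR-338 and miR-455. miR-28, in an intron of LPP on chromosome 3, was the only one with both arms past 1.5-fold in all spots and in each range. miR-28-5p read 1592, 1649, 1197 and 1132 on the shRNA-Ctr/HT-29 and 983, 971, 461 and 477 on the shRNA-Ascl2/HT-29 array, a ratio of 0.568 (0.558 and 0.495). miR-28-3p read 200, 210, 189 and 87 against 109, 141, 66 and 49, a ratio of 0.582 (0.564 and 0.512). The spots of miR-28-5p did not overlap between the arrays, and those of miR-28-3p did by 1 control spot. Of miR-338, in the gene AATK, the 3p arm read 5845 and 2830 (0.484, with 0.615 and 0.176) and the 5p arm 208 and 92.0 (0.443), but the 5p arm was not lower in blocks 1 to 18 (1.08). Of miR-455, the 5p arm had a ratio of 1.80 (2.28 and 0.794) beside the 3p arm at 3.17, so that its block ranges disagreed.

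Pairs in which one arm moved while the other did not included several of the miRNAs described above. miR-361-3p, in an intron of CHM, had a ratio of 1.83 (1.84 and 1.62) while miR-361-5p read 1656 and 1624 (0.981). let-7b was steady while let-7b* read 95.8 and 191, a ratio of 2.00 (2.48 and 1.79). miR-124 at 2.65 and miR-125b at 3.47 stood beside miR-124* at 0.883 and miR-125b-2* at 1.10. miR-22 and miR-221 had ratios of 1.17 and 1.14 beside the lower miR-22* and miR-221*, but the ranges of miR-22 were 0.758 and 43.7 and those of miR-221 were 2.23 and 0.6998. The 6 brightest pairs with both arms inside 1.5-fold were miR-31, miR-200b, miR-24-1, miR-151, miR-29a and miR-141. In 4 pairs both arms were steady, those of miR-24-1, miR-25, miR-550a and miR-769.

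The LS174T arrays serve for a comparison of single values, with the limit that 46 HT-29 spike-in controls had a median ratio of 1.03 whereas the 40 of LS174T had one of 8.60. By the same rule 25.9% of 614 human probes were called higher and 17.1% lower in LS174T in both ranges. Of the 102 miRNAs steady in HT-29, 90 were above 50 on both LS174T arrays, of which 8 were steady there and 45 were called there. Of the 34 called in both ranges in HT-29, 13 were called the other way in LS174T and 1 the same way. Without a replicate in either line, the difference between lines was not tested.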

How the data were processed

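Total RNA (1 microgram) of each stable transfectant was labelled with Hy3 and put on 1 miRNA array (Exiqon) each. The authors scanned the arrays and read the intensity of every spot and of its background with GenePix Pro, and the deposited scanner files hold these linear intensity values, which can fall below 0 after background subtraction. The authors also deposited a table of normalized signal values per probe, used here as an alternative. Per the methods, replicated spots were averaged and arrays were scaled by the median, with a factor taken over miRNAs above 50 in all samples. Lists of the authors' own 2-fold comparisons, with 24 further columns of values per sample, were not used.

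Here the background-subtracted spots of each probe ID were averaged, scaled to the array's median over named miRNA probes above 50 on both HT-29 arrays, and divided, for all spots and for blocks 1 to 18 and 19 to 36 apart. The limit of 50 was set on values before scaling, whereas the design named scaled values, with which 501 probes were above it on both arrays and 24 and 48 were called higher and lower with all spots. A probe was called at 2-fold if above 50 on the brighter array, a rule set here. Where the dim side was at or below 50, the fold is a bound against that limit. Hairpins, clusters, host genes on the same strand and sequences came from RefSeq tables (GRCh38.p14). Named are miRNAs called in both ranges and above 50 on both arrays, the 20 brightest steady, the 15 brightest on either array, those on 1 array alone, clusters with every member moved one way, members moved both ways or the 6 brightest inside 1.5-fold, and arm pairs by the same rule, while others were named after their values were seen. The members, gene lists and rules were chosen with earlier results of these data known. Cell type markers were lists of known tissue miRNAs.

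The alternatives changed the scaling (none, quantile, the 75th percentile), the background (normexp in limma 3.58.1 with offset 50, or none), the spot summary, the limit (100, none), the fold (1.5), the position (division by the landmark controls of each block, single block ranges) and the table. The calling script was tested on simulated data, which checks its arithmetic and not the calls. Python 3.11.15, numpy 2.4.6, pandas 2.3.3, matplotlib 3.10.9 and R 4.3.3 were used.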

Additional observations from a re-analysis of the deposited data

Results flagged for a closer look

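Of the 34 human miRNAs called in both block ranges in HT-29, 13 were called the other way in both ranges of the LS174T arrays, without a test of the difference, since each line has 1 array per condition. The LS174T spike-in controls had a median ratio of 8.60 under the same scaling, so a ratio above 1 there may be no higher than that of the controls. Lower in HT-29 and higher in LS174T were miR-3146 (ratio in LS174T 8.60), miR-135b (6.46), miR-135b* (3.73), miR-302b* (2.97), miR-620 (3.90), miR-1287 (2.42), miR-378c (7.46), miR-378* (49.9), miR-365 (5.27), miR-22* (2.52) and miR-3074 (8.76). The control side in LS174T was below the limit of 50 for miR-3146 (35.0), miR-302b* (44.1), miR-135b* (17.2), miR-378* (2.54) and miR-3074 (15.5), so the ratios of these 5 are not folds, and the bounds were at least 5.93-fold, 2.58-fold, 1.27-fold, 2.50-fold and 2.67-fold higher. miR-3666 was below 0 in shRNA-Ascl2/HT-29 cells as well as in shRNA-Ctr/LS174T cells and read 145 on the shRNA-Ascl2/LS174T array. miR-3195 was the only one higher in HT-29 (6.54) and lower in LS174T (0.112), where it read 1452 on the control and 163 on the shRNA-Ascl2 array.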

How the results depend on the processing

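No paired analysis was possible because each line has 1 array per condition. The 24 higher calls, 49 lower calls, 34 calls in both ranges and 102 steady miRNAs moved with the background correction, where normexp with offset 50 gave 5, 19, 10 and 175, and foreground without subtraction gave 9, 23 and 16 for the calls. Without a limit on intensity there were 46 higher, 148 lower and 62 calls in both ranges among 903 probes, and at 1.5-fold 82, 106 and 93. With the landmark correction, which shifts the median log2 ratio of all miRNAs above 50 to 0.15, 57 were higher and 42 lower, and 21 of the 24 and 27 of the 49 were among them. Without scaling, which shifts that median to -0.10, 17 were higher and 59 lower, and 17 and 49 of these were the calls above. From blocks 19 to 36 alone 15 arm pairs moved by both arms, against 4. Chosen after seeing the data, the limit to probes with ranges within 2-fold left 28 lower calls, and the limit of 1000 on both arrays left 32 steady miRNAs. miR-338-5p turned to 0.11 (log2) in blocks 1 to 18 alone and miR-99b to -0.89 in blocks 19 to 36 alone. The table of the authors gives no detection limit, block ranges or steady band, so only the higher and lower calls were recomputed from it (22 and 57). Values near 50 are limited by the background. Position on the array touches all ratios, and in 105 of 502 the block ranges were over 2-fold apart, in 40 over 4-fold.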
